A study of Homo sapiens with 8 samples.

Results

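The imprinted microRNA (miRNA) clusters at 14q32 and 19q13 were followed in BT474 and SKBR3, breast cancer cell lines with amplified HER2, after trastuzumab or PBS. Members were taken by miRNA number from the names on the array, with any letter or arm, and no measured value entered the choice. They numbered 122 of the 2006 human miRNAs on the array, of which 77 belong to 14q32 and 45 to 19q13. The labels give BT474 as ER+, HER2+ and PR+, and SKBR3 as ER-, HER2+ and PR+, whereas the study's methods call SKBR3 PR-. Cells of each line received 6 µg/mL trastuzumab, an antibody against HER2, or PBS alone for 144 h, with 2 biological replicates per group, and total RNA was hybridized to one-colour miRNA arrays. The series labels 8 arrays, of which 7 are distinct, because the array labelled SKBR3 PBS replicate 1 holds the values of BT474 PBS replicate 1 in all 62344 spots. It was left out, so that SKBR3 has 1 PBS array. They share 1 slide, on which PBS samples occupy row 2 and trastuzumab samples row 1, and the effects of treatment and row cannot be told apart. The BT474 arrays occupy columns 1 and 2 and the distinct SKBR3 arrays columns 3 and 4, so that line and column cannot be told apart either. Each line is a single established culture model, and nothing here was measured in tumours.

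Both clusters are large runs of miRNA genes whose expression depends on the parent of origin. The 14q32 cluster lies in the DLK1-DIO3 domain, where the miRNAs and the long noncoding RNAs MEG3, MEG8 and MEG9 are made from the maternal chromosome, and DLK1 and RTL1 from the paternal one. It is known for activity in brain, embryo and placenta. The 19q13 cluster (C19MC) is found in primates, is made from the paternal chromosome and is known for its activity in placenta. A miRNA pairs with its targets mainly through its seed, bases 2 to 8 from the 5′ end, so that miRNAs with the same seed share many predicted targets.

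The sequences that bear on the results are given here from RefSeq (GRCh38.p14), with the seed in capitals. Of the 122 members, 101 matched a mature sequence by name and 21 did not, mostly because the array uses older names without an arm. The detected member, hsa-miR-494, is one of these names. Its hairpin MIR494 lies on the plus strand at chr14:101029634-101029714 and carries a 5p and a 3p arm. In later nomenclature the name without an arm became the 3p arm, which is at chr14:101029681-101029702.
hsa-miR-494-3p: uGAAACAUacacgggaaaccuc
hsa-miR-494-5p: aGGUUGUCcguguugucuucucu

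The members at 19q13 resemble each other more in their seeds than those at 14q32. Among the 37 members at 19q13 with a sequence there were 25 seeds, and 21 members (56.8%) shared a seed with another member. Among the 64 at 14q32 there were 58 seeds, and 12 members (18.8%) shared one. The largest seed groups at 19q13 were the miR-518 group, with 4 members, and the miR-520 group, with 3 members. They are shown because their 3p arms look alike beyond the seed.
hsa-miR-518b: cAAAGCGCuccccuuuagaggu
hsa-miR-518c-3p: cAAAGCGCuucucuuuagagugu
hsa-miR-520a-3p: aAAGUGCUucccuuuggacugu
hsa-miR-520c-3p: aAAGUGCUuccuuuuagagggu
hsa-miR-520d-3p: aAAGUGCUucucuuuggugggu

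At 14q32 the shared seeds came in pairs, among them hsa-miR-376a-3p with hsa-miR-376b-3p, and hsa-miR-485-3p with hsa-miR-539-3p. The latter pair is shown because hsa-miR-485-3p was among the undetected members with the highest mean spot signal, together with hsa-miR-758-5p.
hsa-miR-485-3p: gUCAUACAcggcucuccucucu
hsa-miR-539-3p: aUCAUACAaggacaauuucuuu
hsa-miR-758-5p: gAUGGUUGaccagagagcacac

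Among the members at 19q13 with a sequence, hsa-miR-526b-3p was the only one whose seed was carried by detected miRNAs from elsewhere. These were 5 miRNAs of the miR-17 seed family, which is known for promoting cell cycle progression.
hsa-miR-526b-3p: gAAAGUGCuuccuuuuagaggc
hsa-miR-17-5p: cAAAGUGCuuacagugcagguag
hsa-miR-20a-5p: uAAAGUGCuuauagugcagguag
hsa-miR-20b-5p: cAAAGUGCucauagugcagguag
hsa-miR-93-5p: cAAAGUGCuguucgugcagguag
hsa-miR-106b-5p: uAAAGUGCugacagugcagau

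The feature extraction software gave each miRNA a detection flag and a summed signal, which is 0.1 where the miRNA was not detected. A flag was set for 201 to 256 of the 2006 human miRNAs per array. Over the 7 distinct arrays 307 miRNAs (15.3%) were detected at least once and 173 on every array. The line check by markers gave the epithelial miRNAs miR-200, miR-141, miR-429 and miR-205 with 8 of 11 names detected in BT474 and 2 of 11 in SKBR3. None of 8 stromal names was detected in either line, and 1 of 9 blood names, hsa-miR-451a, was detected on 1 BT474 array. Of the 2 names of miR-4728, which lies inside the HER2 gene ERBB2, 1 was detected in each line, not the same name. In BT474 it had a flag on the PBS arrays only, and in SKBR3 on every distinct array.

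Both imprinted clusters were almost without signal in these cells. At 14q32, 1 of 77 members (1.30%) was detected on any array, and this was hsa-miR-494. At 19q13, none of 45 members was detected on any array. The same held in both lines and under both treatments: hsa-miR-494 had a flag on all 7 distinct arrays, and no other member had a flag on any. The count did not change when SKBR3 PBS replicate 1 was kept under its label or when detection on at least 2 arrays of a line was required. It did not change either when 25% of the spots had to be well above background.

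Other miRNA genes on the same chromosome bands had flags in larger shares. At 14q32 but outside the domain, 4 of 7 names had a flag, namely hsa-miR-203a, hsa-miR-342-3p, hsa-miR-342-5p and hsa-miR-345-5p. By line, it was 4 of 7 in BT474 but only 1 of 7 in SKBR3. At 19q13 outside the cluster, 5 of 13 names had one, among them hsa-let-7e-5p and hsa-miR-99b-5p, with 5 in BT474 and 4 in SKBR3. The miR-371 to miR-373 genes, which follow the 19q13 cluster directly, gave 0 of 7, and the testis-associated cluster at Xq27 gave 0 of 27. The miR-17 cluster with its paralogs gave 13 of 29. These shares describe the lists, and no test was made between them.

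**Figure D1:**
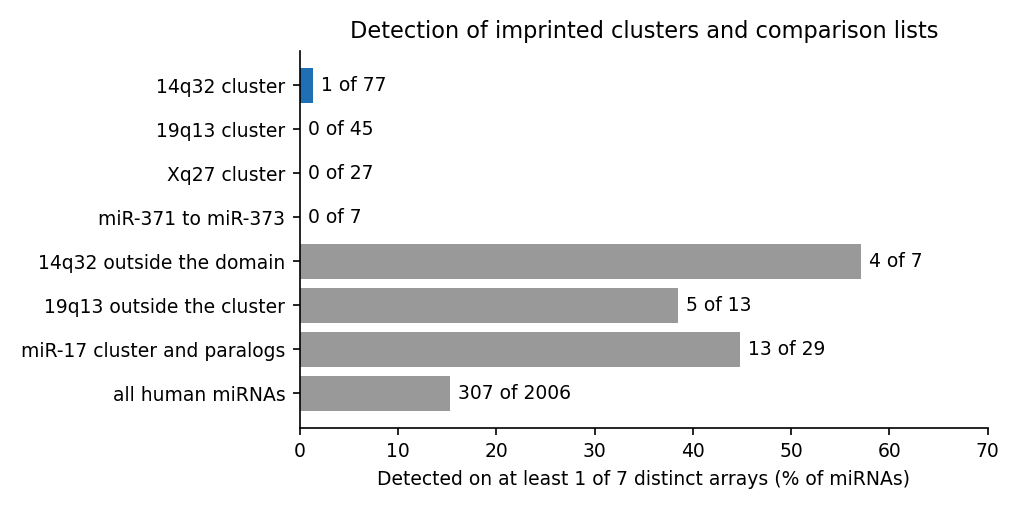
Share of the miRNAs of each list (x axis, % of the list) with a detection flag on at least 1 of 7 distinct arrays, with the counts beside the bars. The imprinted clusters (coloured) reached 1 of 77 and 0 of 45, below the 307 of 2006 over all human miRNAs.

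A shared seed was not accompanied by a shared level. The 5 miRNAs outside the cluster with the seed of hsa-miR-526b-3p were detected on all 7 arrays. Their summed signals had medians from 830 for hsa-miR-20b-5p to 8291 for hsa-miR-106b-5p. hsa-miR-526b-3p itself had no flag, and the median of its spots lay between 6.81 and 40.8 over the arrays. At 14q32, hsa-miR-1185-5p shared its seed with 1 detected miRNA, hsa-miR-3679-5p, and was itself not detected.

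hsa-miR-494 was well measured on each array. Each of its 2 probes has 15 spots, all 15 were well above background on every array, and none was saturated. The brighter probe exceeded the dimmer one by 2.18- to 2.67-fold, and both probes were highest on SKBR3 trastuzumab replicate 1 and lowest on BT474 trastuzumab replicate 2, while the order of arrays between these differed. The summed signal (arbitrary units, not normalized) was 1459 and 964 on the BT474 PBS arrays and 1020 and 787 on the BT474 trastuzumab arrays. In SKBR3 it was 1542 on the PBS array and 4650 and 984 on the trastuzumab arrays. SKBR3 trastuzumab replicate 1 was the brightest array by far, and SKBR3 trastuzumab replicate 2 lay within the range of BT474. Among all human miRNAs, the summed signal of hsa-miR-494 ranked between 62 and 99 on the BT474 arrays and between 20 and 58 on the SKBR3 arrays, where 1 is the brightest. In RNA of a whole culture, signal in fewer cells and less signal per cell cannot be told apart.

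**Figure D2:**
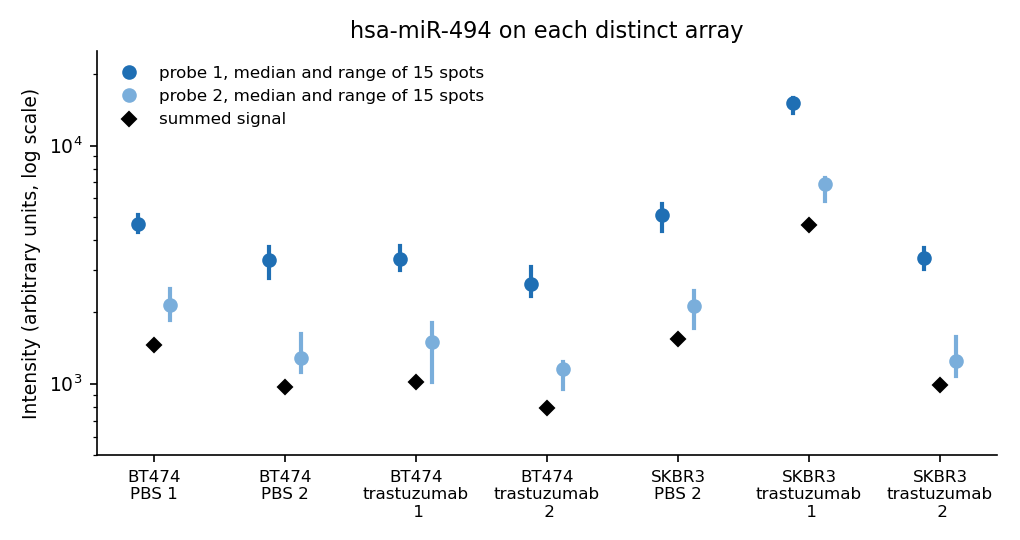
hsa-miR-494 on the 7 distinct arrays (x axis): medians (circles) and full ranges (lines) of the 15 background-subtracted spots of each probe, and the summed signal (diamonds), on a log axis in arbitrary units. Both probes peak on SKBR3 trastuzumab replicate 1, where the summed signal is 4650, against 984 on the other SKBR3 trastuzumab array.

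The response of hsa-miR-494 to trastuzumab did not exceed the spread between replicates. In BT474 the summed signal was 1212 ± 350 (SD, n = 2) with PBS and 903 ± 164 (SD, n = 2) with trastuzumab, and the groups overlapped. After quantile normalization the log2 values were 10.46 and 9.60 with PBS and 9.67 and 9.07 with trastuzumab, and the difference was -0.66 (SE 0.81, adjusted p = 0.600, limma). In SKBR3 the trastuzumab arrays averaged 2817 ± 2593 (SD, n = 2), on both sides of the PBS array. The normalized log2 values were 11.49 with PBS and 12.62 and 10.59 with trastuzumab, a difference of 0.11 (SE 1.02, adjusted p = 0.978, limma). Without SKBR3 trastuzumab replicate 1 the SKBR3 difference was -0.90, and without SKBR3 trastuzumab replicate 2 it was 1.12. The difference in response between the lines was 0.77 (SE 1.31, adjusted p = 0.720, limma).

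Since hsa-miR-494 was the only member with a summed signal, 1 member was tested in each of these comparisons and none was called. For treatment, a call required more than a 2-fold difference and p under 0.05 before adjustment. Over all miRNAs tested, 39 of 285 (13.7%) were called in BT474 and 28 of 227 (12.3%) in SKBR3. The difference in response passed an adjusted p of 0.05 for 49 of 305 miRNAs (16.1%).

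Between the lines, the normalized values of hsa-miR-494 were higher in SKBR3. The 4 BT474 values ranged from 9.07 to 10.46 on the log2 scale and the 3 SKBR3 values from 10.59 to 12.62, without overlap. The difference BT474 minus SKBR3 was -1.85 (SE 0.65) with an adjusted p of 0.0688 (limma), so that it was not called, while 43.9% of 305 miRNAs were. Without normalization between arrays the difference was -0.82, and the summed signals of the lines overlapped. In the mean log2 signal of the spots, a second measure that does not use the detection flag, the difference was -1.72 (SE 0.28, adjusted p = 4.33e-05, limma). There hsa-miR-494 was the 1 member called among 122, against 48 of 2006 miRNAs (2.39%). The spot call was lost with scaling to the 75th percentile (-0.91, adjusted p = 0.0789), with background-subtracted spots (-1.88, adjusted p = 0.231) and with SKBR3 PBS replicate 1 kept (-1.47, adjusted p = 0.133). SKBR3 trastuzumab replicate 1 weighed on the size: without it the spot difference was -1.20. The SE of 0.28 in the spot signal is smaller than the 0.65 in the summed signal. limma draws the variance of each miRNA towards that of all 2006 miRNAs, most of them undetected. The spot SE and p-value therefore do not measure the spread of hsa-miR-494 between replicates alone.

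The genes around MIR494 showed no such signal. Within 5 kb of MIR494 lie 8 hairpins with 12 members, and none of these was detected. They include hsa-miR-329 directly before it, hsa-miR-1193 directly after it, and both arms of miR-495, miR-380, miR-323a and miR-758. Of the 75 placed members at 14q32, 1 lies in MEG3, 5 between MEG3 and RTL1, 9 within the span of RTL1 and 60 beyond MEG8. The 9 members within RTL1 (miR-127, miR-136, miR-431, miR-432 and miR-433) are known to be transcribed antisense to it, and none had a flag. The placed hairpins spanned chr14:100852390-101066801 and, over 94.5 kb, chr19:53666679-53761222.

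**Figure D3:**
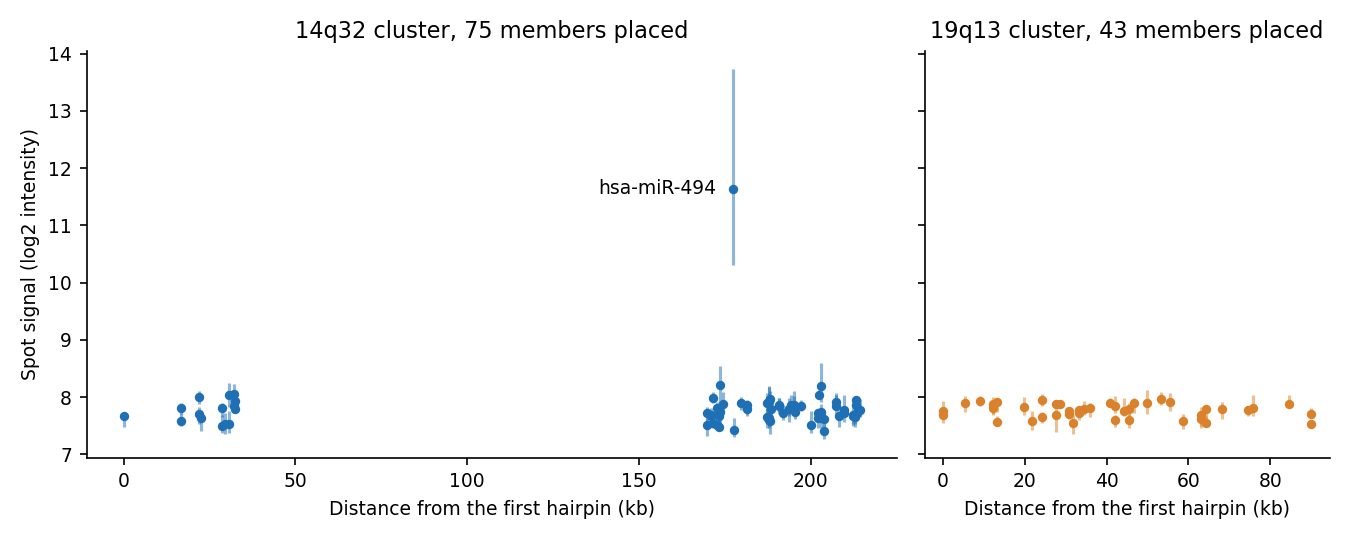
Mean log2 spot signal of each placed member (circles; lines span the 7 distinct arrays) against the distance of its hairpin from the first hairpin of the cluster in kb. hsa-miR-494 stands at 11.64 in a row of members between 7 and 9, and no member at 19q13 stands out.

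A further miRNA of the same domain is not a member, because its number falls outside the rule, and it had a flag on trastuzumab arrays only. hsa-miR-2392 lies between DLK1 and MEG3, with its hairpin at chr14:100814491-100814574. It had no flag on the 3 distinct PBS arrays, and its summed signal was 81.0 and 247 on the BT474 trastuzumab arrays and 231 and 207 on the SKBR3 trastuzumab arrays. The signal came from 1 of its 2 probes, and the other had no spot well above background on any array. The total signal of the former was 40.9 and 34.2 on the BT474 PBS arrays and 37.6 on the SKBR3 PBS array, where 0 to 2 of its 15 spots were well above background. On this scale, without normalization, the mean with trastuzumab was 4.37 times that with PBS in BT474 and 5.83 times in SKBR3. For the summed signal no fold change or p-value is given. All PBS arrays lay at the floor of 10, and hsa-miR-2392 entered that comparison only through its trastuzumab arrays. It was also named for being detected, which held on trastuzumab arrays only. In the spot signal, the mean log2 signal of its spots, the difference was 0.50 in BT474 and 1.09 in SKBR3, which has 1 PBS array. No p-value is given here either, because hsa-miR-2392 was chosen through its trastuzumab arrays. The other 5 names of the domain outside the rule were not detected.
hsa-miR-2392: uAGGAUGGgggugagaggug

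The 121 members without a flag were examined in their spots, 30 per miRNA. Their median background-subtracted intensity, averaged over the 7 arrays, ran from -52.1 to 104 at 14q32, with a median of -2.37 over members. At 19q13 it ran from -36.4 to 38.6, with a median of 6.47. The 1578 other miRNAs without a flag had a median of -8.38, and the negative control spots had medians between 23.8 and 51.6 per array. The 95th percentile of the negative control spots lay between 171 and 227. It was exceeded by the median spot of 1 member on 1 array, hsa-miR-485-3p at 207 on BT474 PBS replicate 1, where this percentile was 171. The medians of all other members lay below it on every array. This sets a median over 30 spots against single control spots, so that lying below it does not show that signal is absent.

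Spots well above background were rare and scattered. On each array they made up 0.351% to 1.67% of the spots of the undetected members at 14q32 and 0.296% to 1.41% at 19q13. The same share was 0.632% to 1.24% over the other undetected miRNAs and 0.700% to 1.90% over the negative control spots. No member had more than 3 such spots of 30 on any array. Of the 847 pairs of an undetected member and an array, 228 had such a spot, in 189 of them a single one. In 222 of the 228 pairs the brightest spot carried the outlier flag of the software. The brightest were 30852 for hsa-miR-495-5p on SKBR3 trastuzumab replicate 2, beside a median spot of 11.9, and 26186 for hsa-miR-525-5p on SKBR3 PBS replicate 2, beside a median of 14.2. These members, like the others named for a single spot, were chosen after their values were seen.

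**Figure D4:**
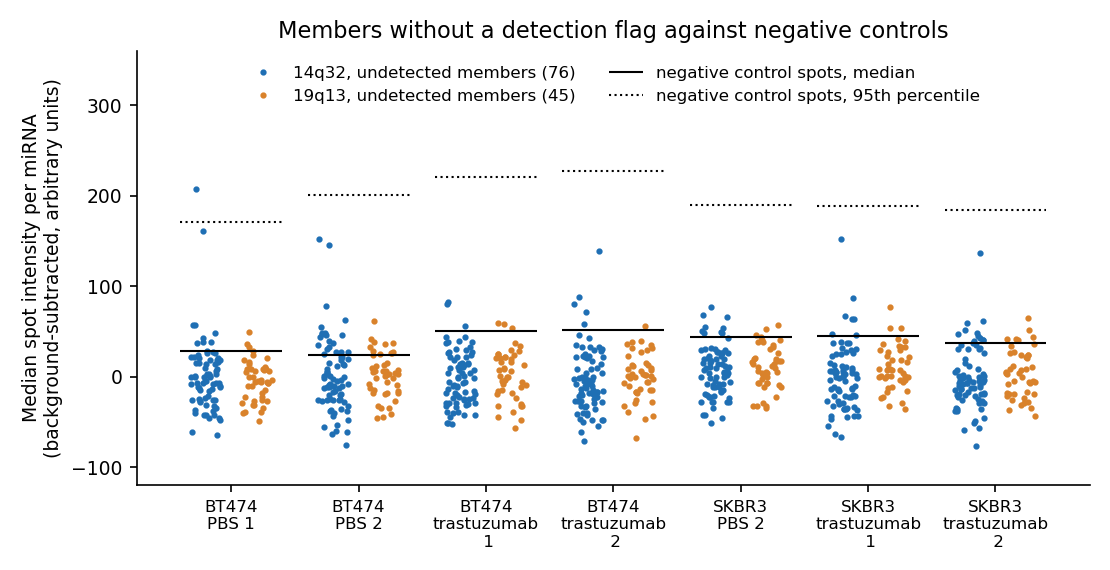
Median background-subtracted spot intensity (arbitrary units) of each undetected member on the 7 distinct arrays, with the median (solid) and 95th percentile (dotted) of the negative control spots of the array. The members of both clusters lie around 0, and 1 point, hsa-miR-485-3p at 207, exceeds the dotted line.

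The undetected members with the highest mean spot signal at 14q32 were hsa-miR-758-5p, hsa-miR-485-3p and hsa-miR-432-5p. At 19q13 they were hsa-miR-520d-3p, hsa-miR-520f and hsa-miR-520a-3p, of which hsa-miR-520d-3p and hsa-miR-520a-3p share the seed of the miR-520 group. The mean log2 spot signals of these 6 ranged from 7.95 to 8.22, against 11.64 for hsa-miR-494. On the 19q13 side the median spots of hsa-miR-520d-3p lay between -3.15 and 61.4, below the 95th percentile of the negative controls on every array. hsa-miR-432-5p had median spots of 38.8 and 32.3 with PBS and 80.6 and 80.1 with trastuzumab in BT474, and of 10.3 with PBS and 63.4 and 61.5 with trastuzumab in SKBR3. The differences in spot signal were 0.25 in BT474 (adjusted p = 0.107, limma) and 0.38 in SKBR3, which has 1 PBS array. Neither passed the adjusted p.

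The spot signal gave a value for every member, and on this scale no member changed beyond 2-fold with trastuzumab. Differences between dim miRNAs are compressed on it, and 0 of the 1578 other undetected miRNAs passed 2-fold in either line. The lack of calls therefore does not show that undetected members did not respond. In BT474, 0 of 122 members were called, against 1 of 2006 miRNAs (0.0499%). Before adjustment, p was under 0.05 at any fold change for 12 members (9.84%) in BT474, against 309 of all miRNAs (15.4%). Among undetected miRNAs alone it was 10 of 76 at 14q32 and 2 of 45 at 19q13, against 152 of 1578 others. The shares over all miRNAs, here and in SKBR3, include detected miRNAs, while all but 1 member were undetected. They do not show that members changed less often than comparable miRNAs. In SKBR3, 0 of 122 members were called, against 12 of 2006 (0.598%), and 12 members (9.84%) had p under 0.05 before adjustment, against 216 of all miRNAs (10.8%). The median log2 difference in BT474 was 0.0058 over the undetected members at 14q32 and 0.012 at 19q13, against 0.0094 over all miRNAs. In SKBR3 it was -0.025 and -0.0067, against -0.0098 over all miRNAs. The standard error of a single difference had a median of 0.087 in BT474 and 0.106 in SKBR3. With limma on background-subtracted spots, where values near 0 are spread widely on the log scale, 5 members were called in BT474, against 98 of 2006 miRNAs (4.89%), and 13 in SKBR3, against 185 (9.22%).

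At an adjusted p under 0.05 and any fold change, 3 members passed in BT474, against 117 of 2006 miRNAs (5.83%). They were chosen for naming after their values were seen. hsa-miR-485-3p fell by 0.42 on the log2 scale (SE 0.092, adjusted p = 0.00515, limma), hsa-miR-758-5p fell by 0.39 (SE 0.112, adjusted p = 0.0386, limma) and hsa-miR-654-3p fell by 0.29 (SE 0.084, adjusted p = 0.0373, limma). In SKBR3, 1 member passed, against 50 of 2006 miRNAs (2.49%): hsa-miR-758-5p rose by 0.74 (SE 0.137, adjusted p = 0.00129, limma). These passes were lost when single arrays were left out. Leaving out an array also changes the shared variance, its degrees of freedom and the normalization, also for the other line. A lost pass alone therefore does not show that the difference came from that array. In BT474 that of hsa-miR-485-3p was lost without BT474 PBS replicate 1 (adjusted p = 0.168, limma) or BT474 trastuzumab replicate 1 (0.144). That of hsa-miR-758-5p was lost without BT474 PBS replicate 1 (0.185), BT474 PBS replicate 2 (0.105), BT474 trastuzumab replicate 1 (0.672), SKBR3 trastuzumab replicate 1 (0.141) or SKBR3 trastuzumab replicate 2 (0.158). That of hsa-miR-654-3p was lost without any one array other than SKBR3 PBS replicate 2 (0.0634 to 0.276). In SKBR3 the pass of hsa-miR-758-5p rests on 1 PBS array, and it was lost without SKBR3 trastuzumab replicate 1 (0.134) or SKBR3 trastuzumab replicate 2 (0.0667).

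hsa-miR-758-5p had median spots of 161 and 152 on the BT474 PBS arrays and 7.94 and 139 on the BT474 trastuzumab arrays. In SKBR3 the median was -19.7 on the PBS array and 152 and 137 on the trastuzumab arrays. The low arrays were thus BT474 trastuzumab replicate 1 and the SKBR3 PBS array, and the other 5 were alike. Without BT474 trastuzumab replicate 1 the BT474 difference was -0.14 (adjusted p = 0.672, limma). hsa-miR-485-3p had median spots of 207 and 146 on the BT474 PBS arrays and 44.3 and 87.9 on the BT474 trastuzumab arrays. In SKBR3 they were 10.4 with PBS and 87.0 and 59.7 with trastuzumab, so that the lowest array in each line was the same as for hsa-miR-758-5p. MIR758 starts 3.61 kb before MIR494, and MIR485 starts 25.8 kb after it. Neither miRNA had over 3 of 30 spots well above background on any array.

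In the spot signal limma draws the variance of each miRNA towards that of all miRNAs, so that a p-value does not measure the spread of 1 miRNA alone. The difference in response between the lines, SKBR3 minus BT474, was also fitted on the spot signal, a test added after the data were seen. It passed an adjusted p of 0.05 for 2 of 122 members, against 70 of 2006 miRNAs (3.49%). These were hsa-miR-758-5p with 1.13 (SE 0.177, adjusted p = 0.00034, limma) and hsa-miR-485-3p with 0.65 (SE 0.145, adjusted p = 0.00785, limma). Both differences use the single SKBR3 PBS array, and neither passed when SKBR3 PBS replicate 1 was kept under its label (adjusted p = 0.820 and 0.999, limma). With background-subtracted spots neither passed either (adjusted p = 0.0627 and 0.137, limma).

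**Figure D5:**
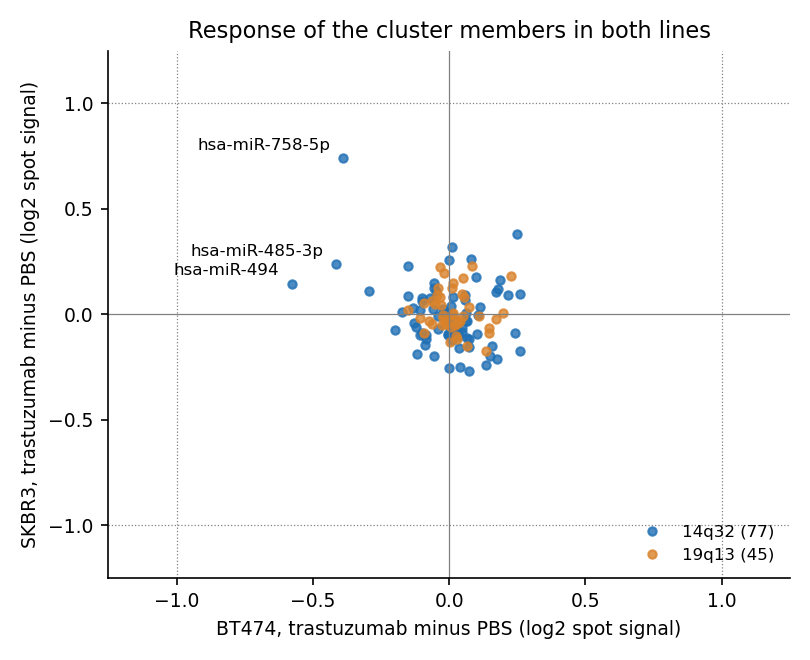
Difference in log2 spot signal between trastuzumab and PBS for the 122 members in BT474 (x axis) and SKBR3 (y axis); dotted lines mark 2-fold. On this scale, which compresses differences between dim miRNAs, all members lie inside 2-fold in both lines. hsa-miR-758-5p at -0.39 and 0.74 is farthest off in SKBR3 and hsa-miR-494 is farthest off in BT474.

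Between the lines, 7 members passed an adjusted p under 0.05 at any fold change in the spot signal, against 18.7% of 2006 miRNAs. Before adjustment, p was under 0.05 for 28 members (23.0%), against 29.2% of all miRNAs, which include the detected ones. Among undetected miRNAs alone it was 20 of 76 at 14q32 and 7 of 45 at 19q13, against 295 of 1578 others. Beside hsa-miR-494, hsa-miR-485-3p and hsa-miR-127-3p were higher in BT474, by 0.26 and 0.21 on the log2 scale. hsa-miR-376a-2-5p (-0.25), hsa-miR-519c-3p (-0.23), hsa-miR-520g (-0.21) and hsa-miR-521 (-0.20) were lower in BT474. These 6 were chosen after their values were seen, none had a flag, and each difference is under 2-fold. The passes of hsa-miR-376a-2-5p and hsa-miR-519c-3p held with each array left out in turn. That of hsa-miR-485-3p was lost without BT474 PBS replicate 1, BT474 trastuzumab replicate 2 or SKBR3 trastuzumab replicate 2 (adjusted p = 0.0682, 0.0618 and 0.0773, limma). That of hsa-miR-127-3p was lost without BT474 PBS replicate 2, BT474 trastuzumab replicate 1, SKBR3 trastuzumab replicate 1 or SKBR3 trastuzumab replicate 2 (0.112, 0.0825, 0.0578 and 0.0708). That of hsa-miR-520g was lost without BT474 PBS replicate 2, BT474 trastuzumab replicate 1 or SKBR3 trastuzumab replicate 1 (0.103, 0.0825 and 0.0843). That of hsa-miR-521 was lost without BT474 PBS replicate 1, BT474 trastuzumab replicate 2 or SKBR3 trastuzumab replicate 1 (0.158 each). hsa-miR-127-3p had median spots of 38.3, 55.3, 82.9 and 71.2 in BT474 and of 9.20, 66.7 and 43.1 in SKBR3, which overlap. The median difference over undetected members was -0.042 at 14q32 and -0.048 at 19q13, against -0.030 over all miRNAs.

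The log2 values that the authors deposited per probe give each member 2 to 4 separate values. They follow the mean of the spots of a probe (Spearman rho 0.939 to 0.949 per array across probes, which are not independent replicates) and hold a value for undetected members too. With limma per probe within each line, a test added after the data were seen, 16 of 298 member probes (5.37%) were called in BT474, against 306 of 4774 probes (6.41%). In SKBR3, on 3 distinct arrays, 27 of 298 (9.06%) were called, against 348 of 4774 (7.29%). The lowest adjusted p of a member probe was 0.653 in BT474 and 0.641 in SKBR3 (limma). At least 1 called probe was found for 14 of 122 members in BT474, against 267 of 2006 miRNAs (13.3%), and for 22 of 122 in SKBR3, against 307 of 2006 (15.3%). In 12 and 17 of these members it was 1 probe of several. A further probe of the same member pointed the opposite way for 9 and 11 members. Every probe was called for hsa-miR-1185-5p in BT474, with 0.379- and 0.313-fold, and for hsa-miR-758-5p in SKBR3, with 3.99- and 6.59-fold. An outlier-flagged spot well above background lay among the spots of 8 of the 16 called probes in BT474, against 104 of the 282 others (36.9%). In SKBR3 it was 14 of 27 (51.9%), against 70 of 271 (25.8%).

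3 members at 14q32 stand in the study's list of strongest responses in BT474, and their probes differed widely there. The probes of hsa-miR-541-5p gave 0.288- to 5.08-fold, those of hsa-miR-493-3p 0.839- to 4.95-fold and those of hsa-miR-379-3p 0.150- to 2.80-fold, with none called by limma. The probe of hsa-miR-541-5p with the largest increase had a mean of 149 over its 8 spots on BT474 trastuzumab replicate 1, and -32.6 without 2 outlier-flagged spots, of which the brighter was 904. For hsa-miR-493-3p the corresponding mean was 81.6 on BT474 trastuzumab replicate 1, and -60.6 without 1 outlier-flagged spot of 1076. The probe of hsa-miR-379-3p with the largest decrease had a mean of 489 over 7 spots on BT474 PBS replicate 2, and 72.7 without 1 outlier-flagged spot of 2986. In the spot signal, which leaves out flagged spots, the differences in BT474 were -0.11 for hsa-miR-541-5p, -0.06 for hsa-miR-493-3p and 0.06 for hsa-miR-379-3p (adjusted p = 0.692, 0.894 and 0.864, limma). In SKBR3 they were 0.02, 0.15 and -0.03.

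Further members stand among the central nodes of the study's networks of responsive miRNAs, namely hsa-miR-485-5p, hsa-miR-411-3p and hsa-miR-526b-3p for BT474 and hsa-miR-519e-5p for SKBR3. None had a flag, and none had more than 2 of 30 spots well above background on any array. Of the probes of hsa-miR-485-5p in BT474, 1 was called at 2.89-fold and 1 at 0.249-fold, in opposite directions. For hsa-miR-411-3p the probes gave 0.423- to 1.14-fold, of which the lowest was called. For hsa-miR-526b-3p they gave 0.257-fold, which was called, and 1.05-fold. The called probe of hsa-miR-526b-3p had a mean of 211 over 15 spots on BT474 PBS replicate 1, and 10.6 without 1 outlier-flagged spot of 3016. The probes of hsa-miR-519e-5p gave 1.42- and 4.97-fold in SKBR3, and neither was called. The latter probe had a mean of 168 on SKBR3 trastuzumab replicate 2, and -45.4 without 2 outlier-flagged spots, of which the brighter was 2932. In the spot signal the differences in BT474 were -0.08 for hsa-miR-485-5p, -0.20 for hsa-miR-411-3p and -0.01 for hsa-miR-526b-3p (adjusted p = 0.788, 0.219 and 0.976, limma), and the difference in SKBR3 was 0.04 for hsa-miR-519e-5p (adjusted p = 0.941, limma).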

How the data were processed

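Cy3-labelled total RNA of the 8 samples was put on human miRNA arrays (one colour, miRBase release 19), which were read with Agilent Feature Extraction 11.5.1.1. The authors deposited this scanner output without normalization between arrays: spot intensity, local background, flags, and a summed signal and detection flag per miRNA, all on a linear intensity scale. The log2 values per probe that the authors deposited were quantile normalized by them within each line. Summed signals of all 2006 miRNAs on the 7 distinct arrays were quantile normalized here and taken to the log2 scale with a floor of 10. Spot medians were background corrected (normexp, offset 50), quantile normalized over human probes and averaged per miRNA without outlier-flagged spots, so that a difference between dim miRNAs is compressed on this scale.

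limma 3.58.1 in R 4.3.3 (lmFit, eBayes) was fitted with 4 group means, and p-values were Benjamini-Hochberg adjusted over all miRNAs tested. The lone SKBR3 PBS array is assumed to vary like the other groups. For treatment, calls used the thresholds of the study (more than 2-fold, p under 0.05 before adjustment), and for the lines more than 2-fold and an adjusted p under 0.05. The fit was tested on simulated arrays. Alternatives were other scalings, floors and filters, background-subtracted spots, the deposited log2 values averaged per miRNA, SKBR3 PBS replicate 1 under its label, the replicate block, and each array left out. Further tools were Python 3.11.15 with pandas 2.3.3, numpy 2.4.6 and, for figures, matplotlib 3.10.9.

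Members and lists were chosen with earlier results of these data known. Named were members detected or called, those in the study's list of strongest responses, the 3 members of each cluster with the highest spot signal among undetected ones, and detected miRNAs of the domain outside the rule. Members central in the study's networks were added later. The number of arrays limits the precision. The p-values use a variance that limma draws from the spread between these samples towards that common to all miRNAs tested. For a miRNA that varies more than most, such as hsa-miR-494 in the spot signal, the SE is then smaller than its own replicates give. Names that RefSeq does not list were matched to no mature sequence.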

Additional observations from a re-analysis of the deposited data

Results flagged for a closer look

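The response to trastuzumab differed between the lines for 2 undetected members at 14q32, by the interaction term of the limma fit to the spot signal. For hsa-miR-758-5p the SKBR3 response minus the BT474 response was 1.13 on the log2 scale (adjusted p = 0.00034), from a difference of -0.39 in BT474 and 0.74 in SKBR3. Without any one of the other 6 arrays in turn it lay between 0.88 and 1.36. For hsa-miR-485-3p it was 0.65 (adjusted p = 0.00785), from -0.42 in BT474 and 0.24 in SKBR3, of which the latter did not pass (adjusted p = 0.459, limma). It no longer passed the adjusted p without BT474 PBS replicate 1 (0.0606), BT474 trastuzumab replicate 1 (0.0666), SKBR3 trastuzumab replicate 1 (0.108) or SKBR3 trastuzumab replicate 2 (0.0528). Neither passed with background-subtracted spots (adjusted p = 0.0627 and 0.137) or with the replicate block (0.0528 and 0.187). Both values rest on the single SKBR3 PBS array, and no value can be given without it. limma draws the variance of each miRNA towards that of all miRNAs tested. The adjusted p-values therefore do not measure the spread of these 2 miRNAs between replicates alone. On both miRNAs this array and BT474 trastuzumab replicate 1 had the lowest median spot of their line, and the part of these 2 arrays in the difference was not tested beyond the values given.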

How the results depend on the processing

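No member was called with trastuzumab in the summed signal, except with the deposited log2 values averaged per miRNA, where 3 were called in BT474, against 85 of 2006 miRNAs (4.24%), and 11 in SKBR3, against 119 (5.93%). In the spot signal no member was called, except 5 in BT474 (4.89% of all miRNAs) and 13 in SKBR3 (9.22%) with background-subtracted spots, and 1 in SKBR3, hsa-miR-494, without SKBR3 trastuzumab replicate 2 (0 to 1 over the arrays left out). Between the lines, background-subtracted spots gave 7 calls (11.6% of all miRNAs), and scaling to the 75th percentile or keeping SKBR3 PBS replicate 1 gave 0, in place of 1. In the summed signal, the 1 member tested between the lines was called without SKBR3 trastuzumab replicate 2 (0 to 1 over the arrays left out). For the difference in response in the spot signal, 9 members were called with background-subtracted spots (7.53% of all miRNAs), without either of the 2 otherwise called, 0 with SKBR3 PBS replicate 1 kept, and 1 to 2 over the arrays left out, against 2. Without SKBR3 trastuzumab replicate 1, hsa-miR-494 turned its direction: over the arrays left out, its SKBR3 difference ran from -0.90 to 1.12 in the summed and from -0.90 to 1.20 in the spot signal, and its difference in response from -0.24 to 1.79 and from -0.32 to 1.78. The cause of these changes was not tested. Detection of 1 member did not change under any alternative run. Without SKBR3 PBS replicate 2, no SKBR3 response exists.

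The replicate numbers were not taken to pair the samples: with 2 pairs in BT474 the deviations correlated at 0.297 over 173 miRNAs in the summed signal and at 0.045 in the spot signal. With the replicate block, 1 member, hsa-miR-494, was called between the lines in the summed signal (-2.35, adjusted p = 0.0159), and 0 in BT474. A block for SKBR3 and for the difference in response was added after the data were seen, with 1 residual degree of freedom, and there the SKBR3 difference rests on the replicates numbered 2. It gave 0 calls in SKBR3 and 0 for the difference in response, in place of 2 in the spot signal. hsa-miR-494 turned its direction under it, to -0.90 in SKBR3 in both signals and to -0.24 in the summed and -0.32 in the spot signal for the difference in response. The 7 arrays and their background limit what can be seen in undetected members.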

Other observations

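The order of the 121 undetected members by median spot intensity was correlated between arrays. Spearman's rho between arrays across these members was 0.601 to 0.726 for 9 pairs of arrays of the same line and 0.562 to 0.751 for 12 pairs of different lines. It is across miRNAs, which share probe design and array background, and no test was made. Across 101 undetected members with a RefSeq sequence, the GC content and the median spot intensity had a Spearman's rho of -0.33, against -0.25 across 1336 other undetected miRNAs. The median GC content was 45.5% at 14q32 and 47.6% at 19q13.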
